A study of Mus musculus with 9 samples.

Results

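The genes described here are 10 components and regulators of the mTOR (mechanistic target of rapamycin) complexes, taken by symbol from the deposited gene table: Tsc1, Tsc2, Mtor, Rptor, Rictor, Rheb, Deptor, Ddit4, Eif4ebp1 and Rps6kb1. All 10 were found among the 17305 genes of the table, and all 10 passed the filter on low counts that 13059 genes passed. They were measured in whole liver RNA of 9 male Balb/c mice, labelled as 8 weeks old, that had received carbon tetrachloride (CCl4, a hepatotoxin that causes fibrosis) for 8 weeks. Each mouse also carried an adeno-associated virus of serotype 8, a liver-tropic vector, injected by tail vein 4 weeks into the CCl4 course at 1e+12 pfu per mouse according to the labels (the methods of the study give an earlier injection and a lower dose). The vector was AAV8-NC in the NC + CCl4 group, AAV8-shRNA-lncHELF1# in the sh1# + CCl4 group and AAV8-shRNA-lncHELF2# in the sh2# + CCl4 group, with 3 libraries, 1 per mouse, in each. Both shRNAs are directed against lnc-Helf, a long noncoding RNA that the study followed in hepatic inflammation, fibrosis and AKT signalling. All 9 livers were injured, no untreated liver is in the table, and the sources used here do not name the promoter that drives the shRNAs.

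mTOR is a kinase that couples growth signals and amino acids to protein synthesis and autophagy. It works in mTOR complex 1 with the scaffold raptor, encoded by Rptor, and in mTOR complex 2 with rictor, encoded by Rictor. Downstream of AKT, the tuberous sclerosis proteins of Tsc1 and Tsc2 switch off Rheb, the small GTPase that activates complex 1 at the lysosome. Ddit4 (REDD1) is induced by stress and acts through the tuberous sclerosis complex, Deptor binds and inhibits mTOR, and the S6 kinase of Rps6kb1 and the translational repressor of Eif4ebp1 are substrates of complex 1. Much of this control runs through phosphorylation, which RNA levels do not measure.

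The guides of the 2 lnc-Helf shRNAs are shown because the vectors that carry them define the sh1# + CCl4 and sh2# + CCl4 groups. The capitals mark the seed, bases 2 to 8 of the guide, through which a guide can pair with other messages. The sequences are those of the cloned hairpins listed by the study, matched to the groups by their number, and both target the lnc-Helf transcript on chromosome 1, which has 680 bases, at bases 196 to 214 for shRNA1# and 309 to 327 for shRNA2#.
shRNA1# guide: tTCTGAGGtaagaaaggtc
shRNA2# guide: aGTTCATTtcctggttagc
The site that pairs with the shRNA1# seed, CCTCAGA, was found in the 3′ untranslated region of 2 of the 10 genes, with 1 site in Tsc1 and 2 in Deptor, and in 17.9% of the 12792 tested genes whose 3′ untranslated region was searched (longest one per gene, GENCODE M21). The site for shRNA2#, AATGAAC, was found in 1 of the 10 genes, Rps6kb1, and in 10.6% of those searched. The whole target of either shRNA was in none of them. A site is a match of letters only, and its use by the guide was not measured. The study also lists a negative control shRNA, whose guide is not shown here and was not searched for sites.

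The total expected count was 14265875 to 16816431 per library. The targeted RNA shares its gene with Fmo2, whose row lay below the control range in both shRNA groups, at 202 to 265 CPM (counts divided by library size after TMM scaling) in NC + CCl4, 104 to 122 in sh1# + CCl4 and 88.2 to 174 in sh2# + CCl4, but this row does not measure lnc-Helf alone. The hepatocyte markers were abundant in every library, with a summed level of 94740 to 154300 CPM, while the 8 monocyte and macrophage markers summed to 658 to 1164 CPM in NC + CCl4, 375.8 to 569.3 in sh1# + CCl4 and 379.9 to 414.4 in sh2# + CCl4. In whole tissue, fewer cells of a type and less RNA per cell cannot be told apart.

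The levels of the 10 genes, given in TPM (scaled to transcript length and library size), spanned a wide range. Eif4ebp1 stood highest at 88.9 to 127 TPM over the 9 libraries, followed by Rheb at 51.5 to 62.3 TPM, and neither range touched that of the next gene. Deptor lay at 19.2 to 30.8 TPM and Rps6kb1 at 14.9 to 21.4 TPM, so that their ranges overlapped, although Deptor was above Rps6kb1 within each of the 9 libraries. Rps6kb1 was separated from the genes below it.

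Rptor (8.97 to 13.99 TPM), Tsc2 (9.17 to 13.8 TPM), Mtor (6.07 to 10.6 TPM) and Ddit4 (4.44 to 10.7 TPM) could not be ordered, since each range overlapped that of the next, and Ddit4 also overlapped Tsc1 below it. The lowest levels were those of Tsc1 at 3.17 to 6.37 TPM and Rictor at 2.05 to 4.95 TPM. These also overlapped, with Tsc1 above Rictor within each of the 9 libraries. The 2 scaffolds that define the complexes thus differed in level, the mean over all libraries being 11.7 TPM for Rptor and 3.40 TPM for Rictor.

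**Figure D1:**
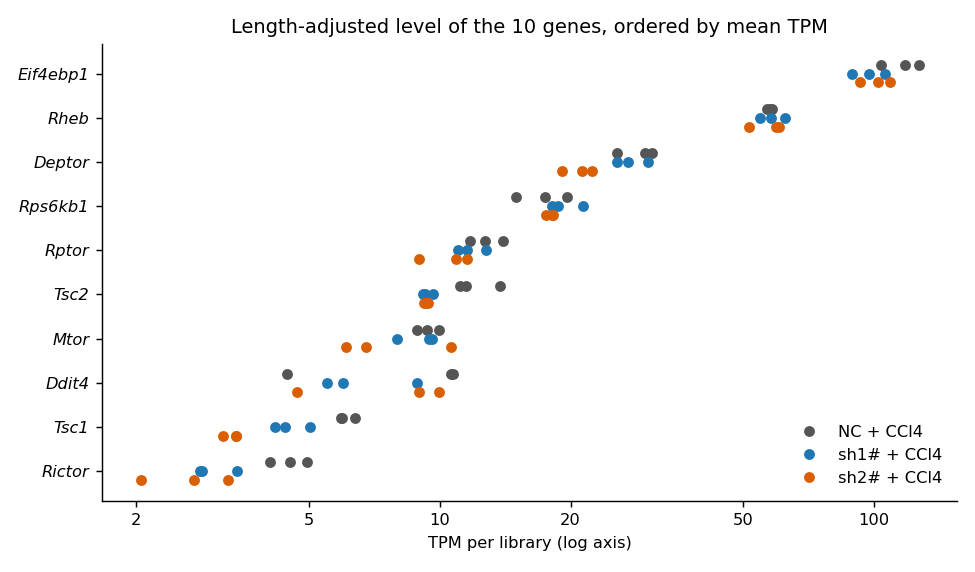
TPM of each gene (log axis) in the 9 libraries, coloured by group, with 1 point per library and genes ordered by their mean. Eif4ebp1 and Rheb stand clear of the rest at 51.5 TPM or more, whereas Rptor, Tsc2, Mtor and Ddit4 overlap between 4.44 and 13.99 TPM.

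The question of each comparison was which of these genes differed between livers with an shRNA and livers with the control vector. In sh2# + CCl4, Tsc1 and Rictor were lower than in NC + CCl4 at an adjusted p under 0.05, and no gene of the 10 was higher at that threshold. In sh1# + CCl4, Tsc1 and Rictor also lay below every control library, but no gene of the 10 passed the threshold. Both comparisons use the same 3 control libraries, so they are not independent of each other.

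Tsc1 encodes hamartin, which holds the tuberous sclerosis complex together. It was measured at 26.4, 25.5 and 27.0 CPM in the NC + CCl4 livers, at 21.6, 20.2 and 23.2 CPM in the sh1# + CCl4 livers and at 16.1, 17.3 and 17.2 CPM in the sh2# + CCl4 livers. The 3 groups did not overlap, and the sh2# + CCl4 libraries were the lowest. Its level in sh2# + CCl4 was 64.1% of the control (log2 fold change -0.64, standard error 0.10, edgeR quasi-likelihood test, Benjamini-Hochberg adjusted p = 0.0201), which ranked 29th of 13059 genes by p. In sh1# + CCl4 its log2 fold change was -0.28 (standard error 0.10, edgeR adjusted p = 0.194).

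Rictor was measured at 22.1, 23.8 and 25.5 CPM in NC + CCl4, at 16.7, 16.7 and 19.3 CPM in sh1# + CCl4 and at 18.8, 16.7 and 13.5 CPM in sh2# + CCl4. All 6 shRNA libraries were below the 3 controls, and the 2 shRNA groups overlapped. The log2 fold change was -0.54 in sh2# + CCl4 (standard error 0.14, edgeR adjusted p = 0.0435), or 68.6% of the control level. In sh1# + CCl4 it was -0.44 (standard error 0.14, edgeR adjusted p = 0.179).

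Of the 10 genes, 2 passed in sh2# + CCl4, both lower, where edgeR called 8.60% of all genes tested and 3.89% in the lower direction. Neither reached the fold change above 2 that the study required, which 2.21% of all genes met together with the adjusted p. In sh1# + CCl4, edgeR called 0 of the 10 and 0% of all genes, while 3 of the 10 had an unadjusted p under 0.05 (Rictor, Tsc1 and Rps6kb1) against 17.9% of all genes, and DESeq2 called 0 of the 10 and 2.98% of all. For sh2# + CCl4, 3 of the 10 had an unadjusted p under 0.05 (Tsc1, Rictor and Rheb) against 31.2% of all, and DESeq2 called the same 2 genes and 16.0% of all. The shRNA group and the controls did not overlap for 4 of the 10 genes in sh1# + CCl4 and for 3 of the 10 in sh2# + CCl4, against 28.5% and 32.9% of all genes tested. For non-overlap, and for unadjusted p in sh2# + CCl4, the shares of the 10 genes are near the background.

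**Figure D2:**
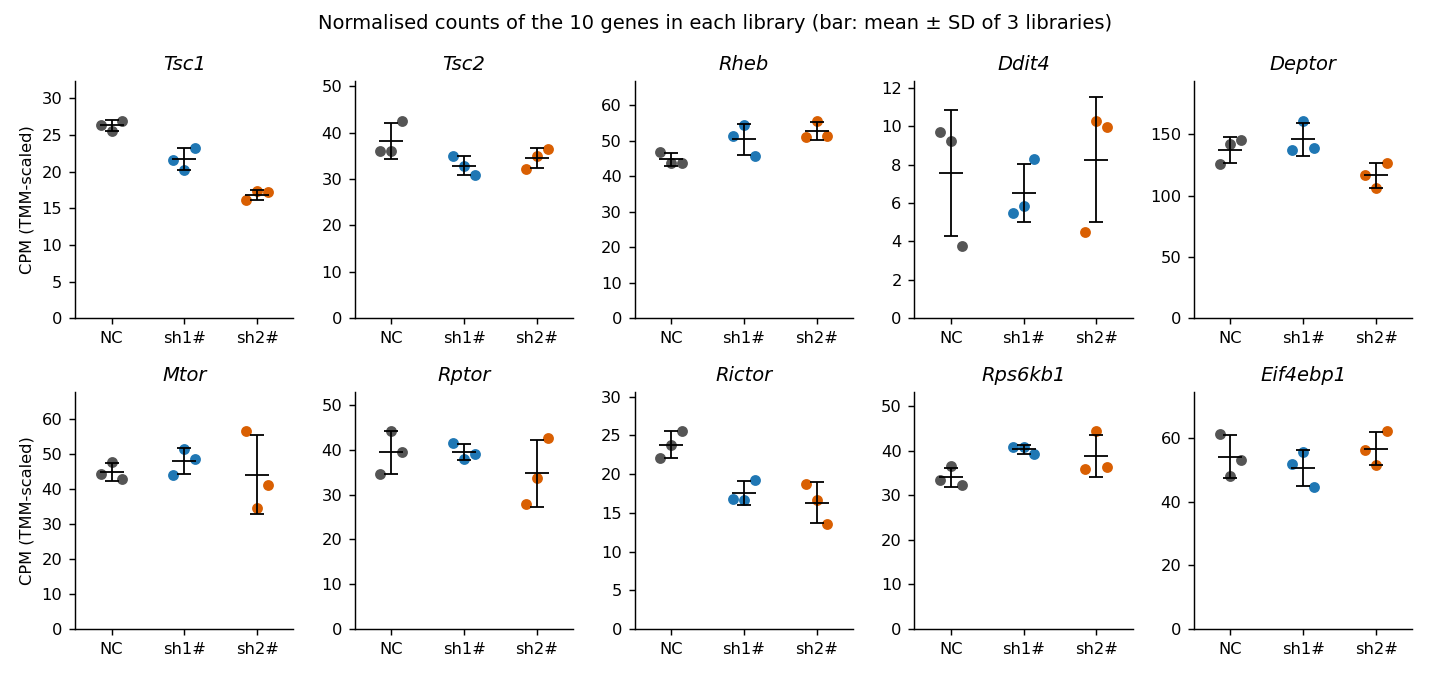
Normalised counts (CPM, TMM-scaled) of the 10 genes, with 1 point per library, and the mean and SD of the 3 libraries of each group in black. Tsc1 steps from 26.3 CPM in NC + CCl4 to 21.7 in sh1# + CCl4 and 16.8 in sh2# + CCl4 without overlap, and Ddit4 spreads widely within each group.

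The length of the transcript moved with these differences over all genes tested. Lengths were derived from the deposited counts and FPKM values, and the genes were split into 10 equal groups by length (deciles). In sh2# + CCl4 the median log2 fold change was 0.34 in the shortest decile (133 to 1033 bases) and -0.25 in the longest (5915 to 26491 bases), and in sh1# + CCl4 it was 0.14 and -0.13. Tsc1 (7529 bases), Rictor (9162), Mtor (8429) and Deptor (8305) all lie in the longest decile, in which 9.88% of genes were called lower in sh2# + CCl4 and 0.459% higher. The log2 fold change of Tsc1 in sh2# + CCl4 was lower than that of all but 16.3% of this decile, and that of Rictor lower than all but 20.9%. In sh1# + CCl4 these shares were 31.3% for Tsc1 and 19.4% for Rictor.

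With the length trend of each library taken out of the fit, a setting chosen after seeing the data, neither gene passed in sh2# + CCl4. The log2 fold change of Tsc1 was then -0.40 (edgeR adjusted p = 0.0544) and that of Rictor was -0.27 (edgeR adjusted p = 0.190). Among the libraries, the rank correlation over genes between length and the deviation of a gene from its mean log2 CPM was 0.06, 0.32 and 0.39 in the NC + CCl4 livers, -0.15, -0.01 and 0.13 in the sh1# + CCl4 livers and -0.15, -0.27 and -0.25 in the sh2# + CCl4 livers. Genes are not independent replicates, and what made long and short transcripts differ between the libraries was not tested. The calls also ended without single libraries. Tsc1 in sh2# + CCl4 was not called when replicate 1 (edgeR adjusted p = 0.0666) or replicate 3 (0.0972) of the controls, or replicate 2 of sh2# + CCl4 (0.0727), was left out, with log2 fold changes of -0.64, -0.62 and -0.67. Each of those fits called 0 of all genes tested. Rictor kept its call in 2 of the 9 fits that left out 1 library, without sh1# + CCl4 replicate 3 or without sh2# + CCl4 replicate 1, and its edgeR adjusted p ranged from 0.022 to 0.133 over all 9.

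**Figure D3:**
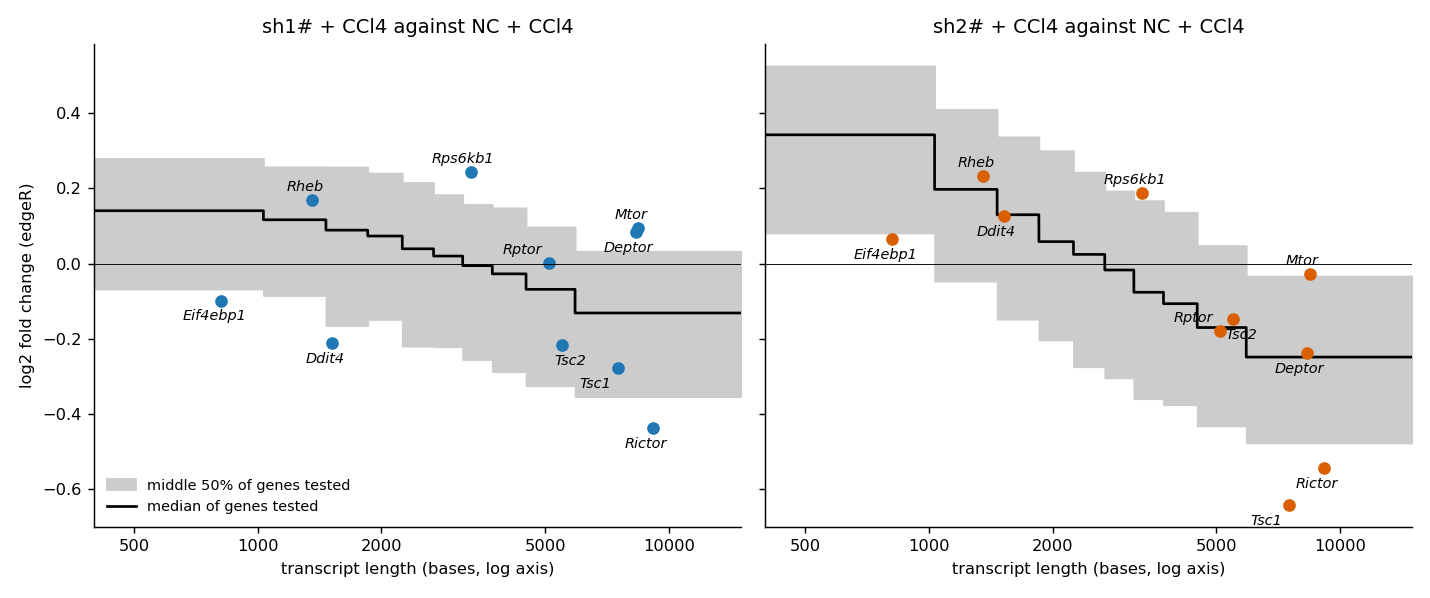
Log2 fold change (edgeR) against transcript length in bases (log axis) for sh1# + CCl4 and sh2# + CCl4, each against NC + CCl4. Coloured points are the 10 genes, the black line is the median of the genes tested in each decile of length, drawn over the decile's span, and the grey band holds their middle 50%. The medians run from 0.34 to -0.25 in sh2# + CCl4, and Tsc1 and Rictor lie below the band there. In sh1# + CCl4 Rictor lies below it and Tsc1 within it.

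**Figure D4:**
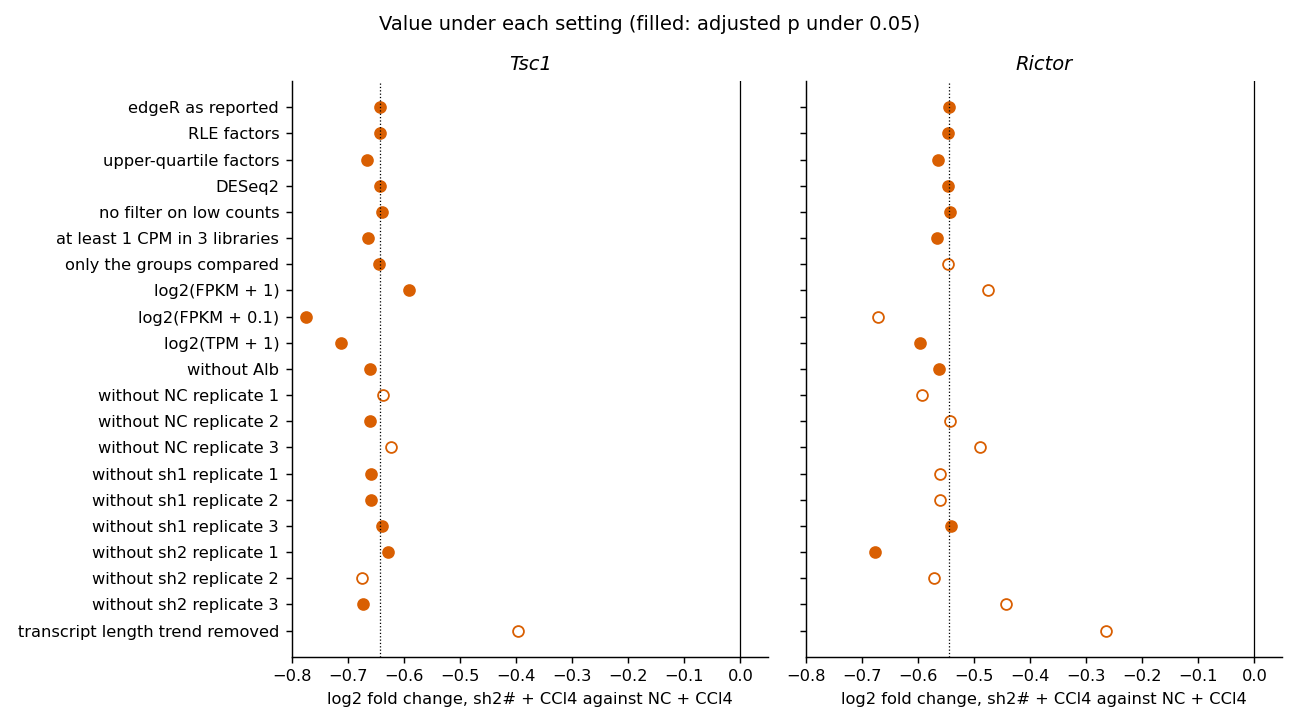
Log2 fold change of Tsc1 and Rictor in sh2# + CCl4 against NC + CCl4 under the processing settings and without each library (filled where the adjusted p was under 0.05, dotted line at the reported value). The fit with the replicate number as a block is not drawn, and neither gene passed in it (edgeR adjusted p = 0.0516 and 0.0908). Tsc1 ranges from -0.77 to -0.40 and Rictor from -0.68 to -0.27, and no value is above 0.

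The promoters of these 2 genes are shown because Tsc1 and Rictor were the members that edgeR called. They are the RefSeq windows of 250 bases before to 50 bases after the start (GRCm38.p6), at chr2:28640983-28641282 on the plus strand for Tsc1 and at chr15:6708131-6708430 on the plus strand for Rictor. The capitals mark ATGGCGGC, a core of the site bound by the transcription factor YY1.
Tsc1: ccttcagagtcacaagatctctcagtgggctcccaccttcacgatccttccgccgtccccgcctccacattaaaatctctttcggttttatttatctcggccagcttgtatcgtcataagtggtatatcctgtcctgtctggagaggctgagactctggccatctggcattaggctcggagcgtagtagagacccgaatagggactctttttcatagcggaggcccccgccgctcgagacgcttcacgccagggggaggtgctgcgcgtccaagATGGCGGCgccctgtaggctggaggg
Rictor: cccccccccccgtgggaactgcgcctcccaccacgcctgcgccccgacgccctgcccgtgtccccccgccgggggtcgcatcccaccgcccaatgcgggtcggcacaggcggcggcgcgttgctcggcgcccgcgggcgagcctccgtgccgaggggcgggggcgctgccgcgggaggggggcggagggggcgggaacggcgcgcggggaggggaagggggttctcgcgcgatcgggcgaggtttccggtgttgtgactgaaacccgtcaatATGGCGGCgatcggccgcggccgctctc
The motif begins at base 25 after the start in Tsc1 and at base 23 in Rictor, so it lies in the transcribed part of the window. It holds ATG, the letters of a start codon, and whether it is part of the coding sequence was not examined. The motif was searched on both strands after the promoters had been read, and is in 2.38% of 27025 promoters and in none of the 6 other members with a promoter in the table (Tsc2, Mtor, Rptor, Rheb, Ddit4 and Rps6kb1). Because it was picked after reading, these shares do not test whether it is particular to the 2 genes. Other short motifs (CRE, E-box, CCAAT, ETS and GC box) were searched too. Tsc1 held none of them, and Rictor held 1 CCAAT and 4 GC boxes. The Rictor window is 78.3% G and C, more than 98.3% of promoters, and that of Tsc1 is 57.3% against a median of 52.7%. The match is a description of the letters and shows no binding.

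Among the inhibitors of mTOR complex 1, Tsc2 encodes tuberin, the part of the complex that acts on Rheb. It was measured at 36.0, 36.1 and 42.6 CPM in NC + CCl4, at 35.1, 32.8 and 30.9 CPM in sh1# + CCl4 and at 32.1, 35.0 and 36.4 CPM in sh2# + CCl4. The sh1# + CCl4 libraries lay below the controls and the sh2# + CCl4 libraries overlapped them. The log2 fold change was -0.22 in sh1# + CCl4 and -0.15 in sh2# + CCl4, with edgeR adjusted p = 0.31 and 0.366. The expected counts of Tsc2 were not whole in any of the 9 libraries, unlike those of the other 9 genes. Its span crosses that of Pkd1 in RefSeq, but those of Mtor, Rptor, Deptor and Rps6kb1 also cross other genes, and what made the counts of Tsc2 fractional was not tested.

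Tsc1 and Tsc2 act as partners in 1 complex. Within each library, the ratio of Tsc1 to Tsc2 in TPM was 0.534, 0.517 and 0.462 in NC + CCl4, 0.455, 0.451 and 0.547 in sh1# + CCl4, and 0.365, 0.362 and 0.345 in sh2# + CCl4. The sh2# + CCl4 livers lay below all 6 others. A ratio within a library does not depend on the scaling between libraries, but both transcripts are long and their lengths differ.

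Deptor, the inhibitor of both complexes, was measured at 125, 142 and 145 CPM in NC + CCl4, at 138, 161 and 139 CPM in sh1# + CCl4 and at 117, 106 and 127 CPM in sh2# + CCl4. The sh2# + CCl4 libraries were below all sh1# + CCl4 libraries and overlapped the controls at their highest value. Its log2 fold change against NC + CCl4 was 0.08 in sh1# + CCl4 (edgeR adjusted p = 0.728) and -0.24 in sh2# + CCl4 (edgeR adjusted p = 0.199). The call of Deptor in sh2# + CCl4 depended on the scale. In TPM its sh2# + CCl4 libraries (19.2 to 22.5) lay below the controls (25.6 to 30.8), and limma on log2(TPM + 1) gave -0.43 with adjusted p = 0.0396, while on log2(FPKM + 1) and log2(FPKM + 0.1) the adjusted p was 0.0583 and 0.0600. With the length trend removed, the edgeR value was 0.03.

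Ddit4, the stress-induced regulator, was the most variable of the 10 genes. It was measured at 9.69, 9.24 and 3.77 CPM in NC + CCl4, at 5.45, 5.86 and 8.27 CPM in sh1# + CCl4 and at 4.50, 10.3 and 9.98 CPM in sh2# + CCl4. High and low livers were found in every group, and all groups overlapped. The 95% interval of the log2 fold change ran from -1.08 to 0.66 in sh1# + CCl4 and from -0.74 to 0.99 in sh2# + CCl4, so that its difference was set only to within these bounds.

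Rheb, the activator, was measured at 46.9, 43.9 and 43.7 CPM in NC + CCl4, at 51.2, 54.4 and 45.6 CPM in sh1# + CCl4 and at 51.0, 55.7 and 51.4 CPM in sh2# + CCl4. Every sh2# + CCl4 library was above every control library. Its log2 fold change there was 0.23 with an unadjusted 95% interval of 0.02 to 0.45 (edgeR adjusted p = 0.139), and it was 0.17 in sh1# + CCl4 (edgeR adjusted p = 0.382). On the TPM scale the sh2# + CCl4 value of Rheb was -0.01, and with the length trend removed it was 0.08.

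The kinase gene Mtor overlapped between all groups. It was measured at 44.1, 47.7 and 42.7 CPM in NC + CCl4, at 43.9, 51.3 and 48.4 CPM in sh1# + CCl4 and at 56.4, 34.5 and 41.2 CPM in sh2# + CCl4. The sh2# + CCl4 livers held both the highest and the lowest value of all 9. The fitted log2 fold change was 0.09 (95% interval -0.27 to 0.46) in sh1# + CCl4 and -0.03 (-0.39 to 0.33) in sh2# + CCl4.

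Rptor was measured at 34.7, 44.2 and 39.5 CPM in NC + CCl4, at 41.5, 38.0 and 39.0 CPM in sh1# + CCl4 and at 27.9, 33.8 and 42.8 CPM in sh2# + CCl4. The groups overlapped. Its log2 fold change was 0.00 (95% interval -0.34 to 0.34) in sh1# + CCl4 and -0.18 (-0.52 to 0.16) in sh2# + CCl4. The ratio of Rictor to Rptor in TPM, which sets the scaffold of complex 2 against that of complex 1, was 0.347, 0.324 and 0.390 in NC + CCl4, 0.220, 0.245 and 0.310 in sh1# + CCl4, and 0.363, 0.250 and 0.177 in sh2# + CCl4. It was below the controls in every sh1# + CCl4 liver and in 2 of the 3 sh2# + CCl4 livers.

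Of the substrates, Rps6kb1 was measured at 33.5, 36.5 and 32.4 CPM in NC + CCl4, at 41.0, 40.9 and 39.2 CPM in sh1# + CCl4 and at 36.0, 44.4 and 36.3 CPM in sh2# + CCl4. All sh1# + CCl4 libraries were above the controls, and those of sh2# + CCl4 overlapped them. The fitted log2 fold change was 0.24 (edgeR adjusted p = 0.273) in sh1# + CCl4 and 0.19 (edgeR adjusted p = 0.256) in sh2# + CCl4. With the length trend removed these were 0.25 and 0.26, with edgeR adjusted p = 0.277 and 0.168. The sh2# + CCl4 value of Rps6kb1 was 0.070 without sh2# + CCl4 replicate 2 and 0.058 on log2(TPM + 1).

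Eif4ebp1, the most abundant of the 10 by TPM, was measured at 61.5, 48.1 and 53.3 CPM in NC + CCl4, at 51.8, 55.6 and 44.7 CPM in sh1# + CCl4 and at 56.3, 51.7 and 62.2 CPM in sh2# + CCl4. All groups overlapped. Its log2 fold change was -0.10 in sh1# + CCl4 and 0.06 in sh2# + CCl4, and the latter was -0.20 with the length trend removed.

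**Figure D5:**
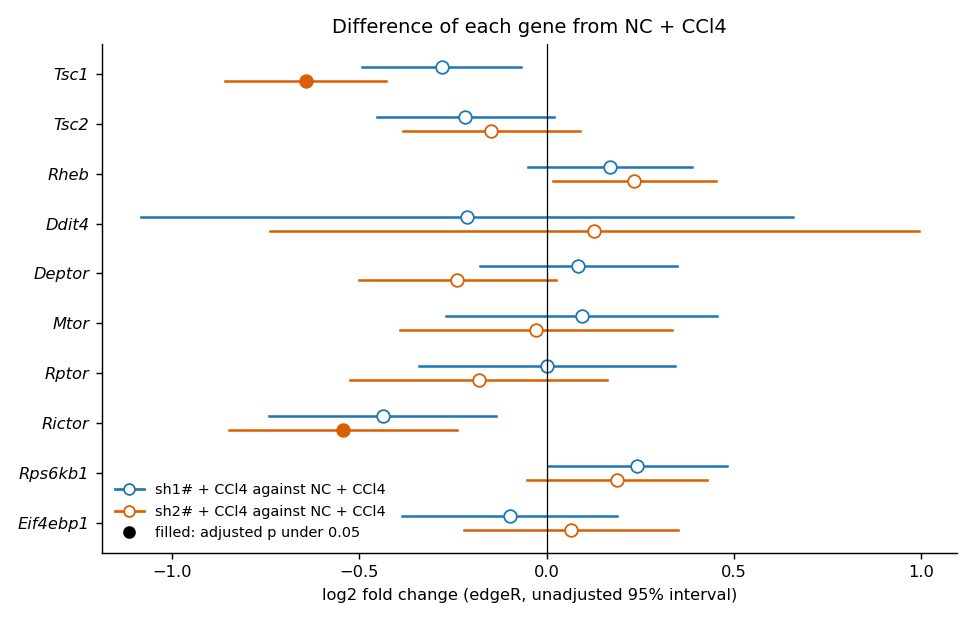
Log2 fold change of each gene against NC + CCl4 (edgeR, all 9 libraries in 1 fit) with its unadjusted 95% interval, in blue for sh1# + CCl4 and in orange for sh2# + CCl4. Filled points mark Tsc1 (-0.64) and Rictor (-0.54) in sh2# + CCl4, the values with an adjusted p under 0.05, and Ddit4 has the widest intervals.

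Where the 2 shRNAs were set against each other, edgeR called 0 of the 10 genes and 0% of all genes tested. In this comparison 2 of the 10, Tsc1 and Deptor, had an unadjusted p under 0.05 and did not overlap between the shRNA groups, both being lower in sh2# + CCl4. Over all genes, 10.5% had such a p, 14.2% did not overlap, and DESeq2 called 0.926%, with 0 of the 10 among them. The fitted log2 fold change of sh2# + CCl4 against sh1# + CCl4 was -0.36 for Tsc1 (standard error 0.10, unadjusted 95% interval -0.58 to -0.15, edgeR adjusted p = 0.435) and -0.32 for Deptor (0.12, -0.59 to -0.06, edgeR adjusted p = 0.454). For Rictor it was -0.11 (-0.41 to 0.20). The difference in Tsc1 between the shRNAs therefore does not pass a test over all genes, and these intervals do not show that the shRNAs act alike.

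Against the mean of both shRNA groups, the calls fell on the same 2 genes. The log2 difference was -0.46 for Tsc1 (standard error 0.08, edgeR adjusted p = 0.0274) and -0.49 for Rictor (standard error 0.12, edgeR adjusted p = 0.0436), each lower in 6 of 6 shRNA libraries than in any control. Thus 2 of the 10 were called and 2 of the 10 did not overlap, against 5.90% and 14.9% of all genes tested. Without single libraries, Tsc1 lost this call in 4 of 9 fits (without replicate 1 or 3 of the controls or replicate 1 or 2 of sh1# + CCl4, edgeR adjusted p up to 0.136) and Rictor in 7 of 9 (all but those without sh1# + CCl4 replicate 3 or sh2# + CCl4 replicate 1, up to 0.169). The fits that ended the Tsc1 call found 0 of all genes tested. With the length trend removed the values were -0.27 for both, with edgeR adjusted p = 0.0807 for Tsc1 and 0.134 for Rictor.

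The other genes of the pathway were taken from 12 lists with 108 genes, of which 105 were tested. In sh2# + CCl4, 7 rose and 8 fell, or 14.3% of those tested against 8.60% of all genes, and in sh1# + CCl4 none passed in edgeR, as none did of all genes. The counts of single lists are to be read against the same share. Lists were described by counts, beside a median log2 fold change over all genes of 0.00 in sh2# + CCl4 and 0.02 in sh1# + CCl4.

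The 8 direct partners of the complexes (such as Mlst8, Mapkap1 and Telo2) held no called gene in sh2# + CCl4, with a median log2 fold change of 0.15 in each shRNA group. The one with the lowest p was Akt1s1, which encodes PRAS40, an inhibitor of complex 1, at 43.0 to 48.7 CPM in NC + CCl4, 48.9 to 52.4 in sh1# + CCl4 and 51.8 to 62.0 in sh2# + CCl4 (log2 fold change 0.32, edgeR adjusted p = 0.0696 in sh2# + CCl4). Of the further partners of TSC and Rheb, 2 of 3 were tested and none was called. Tbc1d7, which encodes a further subunit of the tuberous sclerosis complex, was at 3.94 to 6.22 CPM in NC + CCl4, 7.35 to 10.03 in sh1# + CCl4 and 7.69 to 8.94 in sh2# + CCl4, so that both shRNA groups were above the controls while Tsc1 was below them. Its log2 fold change was 0.66 in sh1# + CCl4 and 0.65 in sh2# + CCl4 (edgeR adjusted p = 0.178 and 0.0705). Over all genes tested, 28.5% in sh1# + CCl4 and 32.9% in sh2# + CCl4 did not overlap the controls. The Tbc1d7 transcript is short, at 1090 bases, and that of Tsc1 is long, at 7529. The part of length in this contrast was not tested.

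Among the Rag GTPases and Ragulator, which bring complex 1 to the lysosome, 2 of 12 tested genes rose and 2 fell in sh2# + CCl4. The 2 that fell encode folliculin-interacting proteins. Fnip2 was at 43.1, 36.6 and 48.1 CPM in NC + CCl4, at 28.5, 34.0 and 25.9 CPM in sh1# + CCl4 and at 23.1, 20.6 and 21.9 CPM in sh2# + CCl4, with no overlap between the 3 groups. Its log2 fold change was -0.96 (standard error 0.14, edgeR adjusted p = 0.0201) in sh2# + CCl4 and -0.53 (edgeR adjusted p = 0.153) in sh1# + CCl4, and Fnip1 fell by 0.71 on the log2 scale in sh2# + CCl4 (edgeR adjusted p = 0.0268). Those that rose were the small Ragulator subunits Lamtor2 (0.59) and Lamtor4 (0.57), with edgeR adjusted p = 0.0432 and 0.0385. Transcript length differed in the same sense, at 6908 bases for Fnip2 and 5983 for Fnip1, and 406 for Lamtor2 and 712 for Lamtor4.

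Of 16 tested GATOR components and amino acid sensors, 1 rose and 2 fell in sh2# + CCl4. Sec13 rose by 0.70 on the log2 scale, while Sesn1, the leucine sensor relative sestrin 1, fell by 0.78 and Wdr59, a subunit of GATOR2, fell by 0.57 (edgeR adjusted p = 0.0431, 0.0368 and 0.0481). Sesn1 was at 18.6, 21.3 and 17.8 CPM in NC + CCl4, 14.1, 15.2 and 17.5 CPM in sh1# + CCl4 and 13.8, 8.36 and 11.4 CPM in sh2# + CCl4, and all shRNA libraries were below the controls. In the LKB1 and AMPK list, which signals energy shortage to TSC2, 1 of 9 passed, the regulatory subunit gene Prkag2, which fell by 0.44 (edgeR adjusted p = 0.0443).

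Of 11 tested genes of the S6 kinase and 4E-BP branch, 3 rose and 1 fell in sh2# + CCl4. The cap-binding protein gene Eif4e rose by 0.50 and the helicase gene Eif4a1 by 0.42, while Eif4b, which encodes the helicase cofactor that S6 kinase phosphorylates, fell by 0.71 (edgeR adjusted p = 0.0392, 0.0435 and 0.0303). Eif4b was at 270, 246 and 310 CPM in NC + CCl4, 182, 203 and 244 CPM in sh1# + CCl4 and 182, 166 and 158 CPM in sh2# + CCl4. Rps6 rose by 1.17, but its row held only 2.07 to 7.06 CPM and ribosomal protein genes have near-identical copies, so this value is uncertain.

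The 7 tested translation factors with TOP messages, whose translation depends on complex 1, and the 7 genes of the ULK1 complex and TFEB held no called gene in sh2# + CCl4, with medians of 0.23 and -0.12. Their lowest p were those of Eef1g (0.34, edgeR adjusted p = 0.0613) and Rb1cc1 (-0.32, edgeR adjusted p = 0.119). Sgk1, a kinase activated by complex 2, was the 1 of 4 in its list that passed, at 31.0 to 38.9 CPM in NC + CCl4, 18.7 to 24.3 in sh1# + CCl4 and 19.2 to 22.3 in sh2# + CCl4 (log2 fold change -0.76, edgeR adjusted p = 0.0227 in sh2# + CCl4 and -0.68, 0.124 in sh1# + CCl4).

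The last 3 lists hold genes that respond to the stresses known to induce Ddit4. Of 14 genes of the ATF4 list, 1 rose in sh2# + CCl4, Atf4 itself, at 65.0 to 72.2 CPM in NC + CCl4, 91.2 to 101 in sh1# + CCl4 and 93.0 to 139 in sh2# + CCl4 (log2 fold change 0.66, edgeR adjusted p = 0.0373). Nupr1 of the same list had log2 fold changes of -1.38 and -1.33 in sh1# + CCl4 and sh2# + CCl4 (edgeR adjusted p = 0.16 and 0.0509) and passed against their mean (-1.35, edgeR adjusted p = 0.0395). Of 9 tested HIF-responsive genes, Slc2a1, the glucose transporter gene, fell by 0.66 (edgeR adjusted p = 0.0416), and of 6 glucocorticoid-responsive genes none passed, the lowest p being that of the receptor gene Nr3c1 (-0.27, edgeR adjusted p = 0.113).

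With the length trend removed, 4 of the 15 list genes called in sh2# + CCl4 kept their call, namely Fnip2, Sesn1, Eif4b and Sgk1, and Nupr1 then passed as well (edgeR adjusted p = 0.0425). Over all genes, edgeR called 396 under this setting and 1123 without it. None of the 15 kept its call when replicate 1 or 3 of the controls or replicate 2 of sh2# + CCl4 was left out. EdgeR called 0 of all genes tested in each of those fits. The monocyte and macrophage markers moved with these calls, with median log2 fold changes of -0.94 in sh1# + CCl4 and -1.28 in sh2# + CCl4 (4 of 8 fell in the latter), and the stellate cell markers with -0.60 and -0.40 (2 of 8 fell). Kupffer cell markers had medians of -0.021 and -0.93 (0 of 5 called), neutrophil markers -0.39 and -0.83 (1 of 3 tested fell in sh2# + CCl4), and proliferating cell markers 0.97 and 1.19 (0 of 4 called). The last summed to 27.9 to 42.7 CPM in NC + CCl4, 27.6 to 96.7 in sh1# + CCl4 and 28.8 to 146 in sh2# + CCl4. Endothelial markers had medians of -0.23 and -0.42 (0 of 6 called) and cholangiocyte markers -0.14 and -0.32 (0 of 5). B cell markers had -0.44 and -0.83 (0 of 2 tested), and the 1 tested T cell marker had -0.58 and -1.35, uncalled. Of all genes tested, 3.89% were called lower in sh2# + CCl4. The part of these cell types in the differences of Tsc1, Rictor or the list genes was not tested.

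As a description, the 5 tested genes whose log2 CPM followed that of Tsc1 most closely over the 9 libraries were Jade2 (Pearson r = 0.98), Rhoq (0.96), Ifi202b (0.96), 2510009E07Rik (0.95) and Skil (0.95), points that share the same libraries and the same order of groups. Jade2 was at 13.3, 12.7 and 13.5 CPM in NC + CCl4, 9.15, 9.26 and 10.9 in sh1# + CCl4 and 6.30, 5.98 and 7.21 in sh2# + CCl4. Among the 10 genes, Rictor came nearest to Tsc1 (r = 0.79) and Rheb ran opposite to it (r = -0.81).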

How the data were processed

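Liver RNA of 9 mice was sequenced in single-end reads of 50 bases on a BGIseq500, and libraries were grouped by the submitters' labels, with 1 library per mouse. The authors deposited RSEM expected counts, which are not normalized (8.15% are not whole), and FPKM and TPM values, which the authors scaled to library size and transcript length. BWA, Bowtie2 and RSEM (versions not stated) and the human build hg19 are named in the submitters' processing notes, while the gene numbers are those of mouse genes, so no gene coordinates are given from the table. The 10 genes and the lists were chosen with earlier results of these data known.

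Expected counts were rounded and fitted in R 4.3.3 with edgeR 4.0.16 (TMM factors 0.882 to 1.07, filterByExpr with a minimum count of 10, glmQLFit and glmQLFTest, all 9 libraries in 1 fit, common biological variation 19.9%). P-values were adjusted over 13059 genes. Standard errors came from the F statistic, and 95% intervals were not adjusted. Transcript lengths were the expected count divided by the FPKM value and the library total, as the median over libraries. DESeq2 1.42.0 and limma 3.58.1 on log2 values with pseudocounts of 1 and 0.1 were alternatives. The tests were tested on simulated counts: of genes with a log2 change of 1 in a simulated sh2# + CCl4 comparison over 12948 genes, edgeR recovered 58.2%, with 6 false calls. With a length trend added to the simulated counts (12949 genes) it made 54 false calls, and 11 once the trend was removed. The simulated counts had the same spread for every gene and the same trend in each sh2# + CCl4 library. In the data the trend differed within groups, and the changes of Tsc1 and Rictor were smaller than 1. These figures therefore do not give the recovery or the false calls of the tests on the data. The edgeR p-values weigh a difference against the spread between mice of a group. That spread was estimated over all 9 libraries and drawn towards that of other genes, so it does not rest on the 2 compared groups alone. Named genes were the 10, list genes with an edgeR adjusted p under 0.05 in any comparison (otherwise the lowest p of the list), and the 5 most like Tsc1. Within each group, no 2 libraries had identical counts, and libraries of different groups were not compared in this way.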

Additional observations from a re-analysis of the deposited data

Results flagged for a closer look

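Deptor lay above the NC + CCl4 mean of 137.4 CPM in all 3 sh1# + CCl4 livers (137.5 to 161.2 CPM) and below it in all 3 sh2# + CCl4 livers (106.2 to 126.6 CPM). The lowest sh1# + CCl4 liver was level with that mean, and in TPM 2 of the 3 (25.5 and 27.1) lay below the control mean of 28.7, so the opposite sides rest on the scale. The log2 difference of sh2# + CCl4 against sh1# + CCl4 was -0.32, which edgeR did not call at an adjusted p of 0.454. The glucocorticoid receptor gene Nr3c1 showed the same pattern, at 102 to 106 CPM in sh1# + CCl4, 75.8 to 91.9 CPM in sh2# + CCl4 and 95.4 to 105 CPM in NC + CCl4, with a log2 difference of -0.33 between the shRNA groups. Deptor and Nr3c1 transcripts are long, at 8305 and 6202 bases. With only 3 libraries a group, single libraries were not examined as outliers.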

How the results depend on the processing

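Tsc1 and Rictor were lower than NC + CCl4 for each shRNA in every setting run, and RLE or upper-quartile factors, other filters, DESeq2 and leaving out Alb kept both calls in sh2# + CCl4. Rictor was not called there with only the groups compared in the fit (adjusted p = 0.0691), on log2(FPKM + 1) (0.0508) or on log2(FPKM + 0.1) (0.0589), nor against the mean of both on log2(FPKM + 0.1) (0.0608). Deptor in sh2# + CCl4 was called on log2(TPM + 1). The number of genes called in sh2# + CCl4 (1123) was 2084 in DESeq2, 500 with only the groups compared and 396 with the length trend removed, and 0 to 1658 without single libraries. It was 0 without NC + CCl4 replicate 1 or 3 or sh2# + CCl4 replicate 2. In sh1# + CCl4 (0) it was 382 in DESeq2, 1 with only the groups compared and 0 to 3 without single libraries, for sh2# + CCl4 against sh1# + CCl4 (0) 67 in DESeq2 and 0 to 1, and for the mean of both (770) 1803 in DESeq2, 453 with the length trend removed and 0 to 1710. A fit of only the groups compared is not defined for the mean.

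The FPKM and TPM scales moved the median of all genes against edgeR by -0.12, -0.13 and -0.14 in sh1# + CCl4 and by -0.15, -0.16 and -0.22 in sh2# + CCl4 for log2(FPKM + 1), log2(FPKM + 0.1) and log2(TPM + 1), and the lower share of calls in sh2# + CCl4 was 85.6%, 84.8% and 91.3%, against 508 of 1123 in edgeR. On these 3 scales in turn, small differences changed sign, with Mtor at -0.037, -0.043 and -0.054, Rptor at -0.089, -0.10 and -0.11 and Deptor at -0.036, -0.038 and -0.053 in sh1# + CCl4, and Ddit4 at -0.026, -0.023 and -0.086 and Eif4ebp1 at -0.12, -0.12 and -0.19 in sh2# + CCl4. Rheb in sh2# + CCl4 was -0.012 on log2(TPM + 1). Rptor in sh1# + CCl4 was also -0.015 with RLE factors and in DESeq2, -0.042 with upper-quartile factors, -0.027 with at least 1 CPM in 3 libraries, -0.022 with only the groups compared and -0.016 without Alb. With the length trend removed, sh2# + CCl4 values were 0.044 for Tsc2, 0.23 for Mtor, 0.027 for Deptor and -0.20 for Eif4ebp1, and Rictor against sh1# + CCl4 was 0.0085.

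Without single libraries, values ranged in sh1# + CCl4 from -0.081 to 0.095 for Rptor, -0.014 to 0.13 for Deptor, -0.53 to 0.0065 for Ddit4 and -0.19 to 0.0022 for Eif4ebp1, in sh2# + CCl4 from -0.27 to 0.11 for Mtor, -0.19 to 0.40 for Ddit4 and -0.023 to 0.16 for Eif4ebp1, and for Rictor against sh1# + CCl4 from -0.22 to 0.014. For differences of this size the direction is not set by these data. The cause of these shifts was not tested.

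The replicate numbers share no stated animal or batch, and same-numbered libraries did not deviate together (r from -0.42 to 0.22 over 9 pairs, 1 above 0.1, own number the best match in 3 of 18). With the replicate number as a block, 0 genes were called in sh2# + CCl4 and 0 against the mean of both, and Tsc1 and Rictor in sh2# + CCl4 had adjusted p = 0.0516 and 0.0908, and 0.0708 and 0.0938 against the mean of both.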
